A study of Arabidopsis thaliana with 9 samples.

Results

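The minichromosome maintenance (MCM) genes encode the helicase that opens the DNA double helix at replication forks. Of the 9 Arabidopsis loci listed, MCM2 (AT1G44900), MCM3 (AT5G46280), MCM4 (AT2G16440), MCM5 (AT2G07690), MCM6 (AT5G44635), MCM7 (AT4G02060), MCM8 (AT3G09660), MCM9 (AT2G14050) and MCM10 (AT2G20980), only MCM7, also known as PROLIFERA, has a probe set of its own in the array annotation used here. It is 255513_at, 1 of the 22746 probe sets that were tested. The other 8 loci were not analysed here, so the values below describe MCM7 and not the family. The genes were chosen with results from these arrays already known, and which of the values led to the choice is not recorded, so the levels and differences of MCM7 are given as a description. Where the array-wide threshold is named for MCM7, nothing is read from it.

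The MCM2 to MCM7 proteins form a ring that is loaded onto replication origins before S phase by the origin recognition complex together with CDC6 and CDT1. The ring becomes an active helicase when CDC45 and the GINS complex join it, a step in which MCM10 takes part. MCM8 and MCM9 are known mainly for roles in recombination and DNA repair. In plant roots the genes of the ring are transcribed mostly in dividing cells, which lie in the meristem at the root tip, and E2F transcription factors are known to activate them. PROLIFERA was one of the earliest plant MCM genes to be described and is active in dividing cells throughout the plant.

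Root tips of the accessions Cape Verde Islands (Cvi) and Landsberg erecta (Ler, given as Ler-2 in the labels) and of the near isogenic line 170G-55-16 (NIL, also named HGI2.1) were hybridized to Affymetrix ATH1 arrays, 3 biological replicates per genotype. Each array held RNA from about 600 pooled tips, 7 mm long, cut from 5-day-old seedlings that had grown on upright hard agar for 2 d and then at a backward tilt of 30° for 3 d. All 3 genotypes were grown in the same way, and the labels name no other treatment, transgene or mutant allele. The parents and the introgressed segment of the NIL are not given in the labels. The accessions differ in sequence as well as in expression, and a probe set reports hybridization, so the transcript level of a gene and the match of its transcript to the probes cannot be told apart between genotypes.

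The values are hybridization signals on a linear scale, with a median of 110 to 122 per array. Cvi array 1 stood apart, with correlations of 0.978 and 0.980 to the other Cvi arrays, which correlated at 0.997 with each other. It lay at least 2-fold from their mean at 4.55% of probe sets, against at most 0.202% for any other array. For a part of the genes the difference is also given without it. Control probe sets at both ends of the actin transcript differed between genotypes, with a log2 difference (3′ end minus 5′ end) of −2.65 to −2.10 on the Cvi arrays and 0.894 to 1.099 on the other arrays. For ubiquitin this difference was 0.52 to 0.75 in Cvi and 0.11 to 0.26 elsewhere, and for GAPDH it was −0.01 to 0.04 in Cvi and −0.26 to −0.08 elsewhere. These end differences move with the comparison of Cvi with Ler, and their part in the MCM7 result was not tested. The tissue label could be checked only in part. The root hair gene EXPA7 had a signal of 862 to 1348 on the 9 arrays, whereas none of the 5 meristem, 4 xylem, 4 endodermis and root cap or 5 shoot photosynthesis markers listed has a probe set named in this annotation. The 7 photosystem genes listed later had signals from 32.7 (LHCB4.2, in Cvi) to 407 (LHCB4.1, in Ler). What these signals mean for the tissue was not tested.

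MCM7 was brighter in Cvi than in Ler or the NIL. Its signals were 427, 451 and 362 on the 3 Cvi arrays, 315, 285 and 320 on the NIL arrays and 273, 307 and 289 on the Ler arrays. Every Cvi array lay above every other array, whereas the NIL and Ler arrays overlapped. The mean signal was 413 ± 45.9 in Cvi, 307 ± 19.1 in the NIL and 290 ± 17.1 in Ler (SD, n = 3 arrays each), so the order was Cvi, NIL, Ler, and the NIL and Ler did not differ beyond their spread. In RNA from whole root tips, a smaller share of dividing cells and less of a transcript in each of them cannot be told apart.

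**Figure D1:**
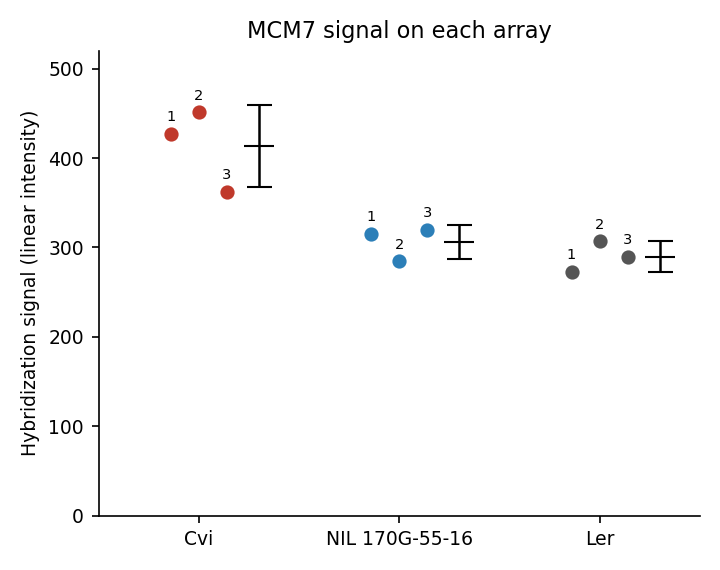
MCM7 hybridization signal (linear intensity, axis from 0) on each of the 9 arrays, by genotype, with the replicate number above each point and the mean ± SD of the 3 arrays to the right. The Cvi arrays lie between 362 and 451, above the NIL arrays (285 to 320) and the Ler arrays (273 to 307).

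On the log2 scale the MCM7 level was 8.69 ± 0.16 in Cvi, 8.26 ± 0.09 in the NIL and 8.18 ± 0.09 in Ler (SD, n = 3 arrays each). The difference between Cvi and Ler was 0.51 (standard error 0.11, 95% confidence interval 0.26 to 0.76), or 1.42-fold. The NIL lay 0.43 below Cvi, that is, the NIL minus Cvi difference was −0.43 (standard error 0.11, interval −0.68 to −0.18), or 1.35-fold. Between the NIL and Ler the difference was 0.08 (standard error 0.11, interval −0.17 to 0.33), which places the NIL at 0.16 of the way from Ler to Cvi. The 3 comparisons share arrays and are not independent of each other.

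These are moderate differences among all those on the arrays. MCM7 passed the threshold used for every probe set (limma, Benjamini-Hochberg adjusted p under 0.05) for Cvi against Ler, as did 13.0% of the 22746 probe sets, 5.75% of them higher and 7.27% lower in Cvi. It also passed for the NIL against Cvi, where 10.8% of probe sets did so and 5.61% did so with a lower signal in the NIL, and did not pass for the NIL against Ler, where 0.356% did. Arrays of Cvi and Ler did not overlap at 27.2% of all probe sets, those of the NIL and Cvi at 26.5% and those of the NIL and Ler at 13.6%. A difference between Cvi and Ler as large as that of MCM7 or larger, in either direction, was found at 13.4% of probe sets, and 5.80% had a more positive one. For the NIL against Ler, 52.3% of probe sets had a larger difference than MCM7. The median difference over all probe sets was 0.01 for Cvi minus Ler, −0.02 for NIL minus Ler and −0.02 for NIL minus Cvi.

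MCM7 was measured with little spread. Its residual SD within genotypes was 0.12 on the log2 scale, against a median of 0.17 for all probe sets, and 24.7% of probe sets had a smaller one. Its mean log2 signal of 8.37 lay well above 5.37, the level below which probe sets were left out as dim in an alternative fit. Without Cvi array 1 the difference between Cvi and Ler was 0.48. The value moved between 0.44 and 0.60 when single arrays were left out, and without Ler array 1, when it was 0.47, it was not past the threshold. The difference between the NIL and Cvi ranged from −0.52 to −0.36 with single arrays left out. It was not past the threshold without Cvi array 2, without any 1 of the 3 NIL arrays, or without Ler array 1 or 3, when it was −0.46 to −0.36, nor in the fit to the 6 arrays compared, with the replicate number as a block or with trend and robust estimation, when it stayed at −0.43.

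The other genes of the replication machinery, which are not among the chosen loci, were tested in the same fit. Of 49 such genes listed, 6 have a probe set named here, and none of them passed the threshold in any of the 3 comparisons (limma, 0 of 6 each, and 0 of 6 each at an unadjusted p under 0.05). Among all 22746 probe sets, the unadjusted p was under 0.05 at 5670 for Cvi against Ler, 5312 for the NIL against Cvi and 874 for the NIL against Ler. Of all probe sets, 13.0% passed for Cvi against Ler, 10.8% for the NIL against Cvi and 0.356% for the NIL against Ler, shares at which few or none of 6 would pass, so nothing is read from these counts. With limma's array weights, which give Cvi array 1 little weight, 4 of the 6 passed between Cvi and Ler, CDC6B and PSF2 higher and ICU2 and POLD3 lower, among 42.0% of all probe sets. In the unweighted fit of Cvi against Ler, 3 of the differences were positive and 3 negative, with a median of 0.08 and a range of −0.16 to 0.34. Over all probe sets the median was 0.01.

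The 1 origin licensing gene measured, of 11 listed, was CDC6B, a homologue of the CDC6 protein that helps to load the MCM ring. Its signals were 68.6, 60.3 and 74.2 in Cvi, 56.0, 59.8 and 60.3 in the NIL and 56.7, 62.3 and 56.8 in Ler. The Cvi and Ler arrays overlapped, and the difference was 0.20 (standard error 0.11, interval −0.03 to 0.44, adjusted p = 0.272 from limma). Among 6 helicase activation genes listed, only PSF2, a subunit of the GINS complex that switches the helicase on, was measured. PSF2 had signals of 127, 169 and 171 in Cvi, 128, 144 and 134 in the NIL and 96.6, 139 and 134 in Ler. The difference between Cvi and Ler was 0.34 (standard error 0.16, interval −0.02 to 0.70, adjusted p = 0.231 from limma), the largest of the 6. Cvi array 1 was the dimmest of the Cvi arrays for PSF2, and without it the difference was 0.48 and passed (standard error 0.14, adjusted p = 0.0270 from limma), among 23.7% of all probe sets that did so in that fit. Ler array 1 was the dimmest of all for PSF2, and without it the difference was 0.17 (adjusted p = 0.630 from limma).

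At the replication fork, 4 of 27 listed genes were measured. POLA3, a primase subunit of DNA polymerase α that lays down RNA primers, had signals of 462, 446 and 418 in Cvi, 390, 375 and 408 in the NIL and 377, 422 and 350 in Ler. The Cvi arrays were above the NIL arrays, but the highest Ler array exceeded the lowest Cvi array, and the difference between Cvi and Ler was 0.21 (standard error 0.10, interval −0.02 to 0.44, adjusted p = 0.247 from limma). ICU2, the catalytic subunit of the same polymerase, had signals of 155, 95 and 103 in Cvi, 119, 115 and 128 in the NIL and 131, 140 and 115 in Ler. Its brightest and its 2 dimmest arrays were all Cvi arrays. The difference from Ler was −0.16 (standard error 0.17, interval −0.54 to 0.22, adjusted p = 0.633 from limma), and without Cvi array 1 it was −0.38 and passed (standard error 0.10, adjusted p = 0.0206 from limma). Without Cvi array 2 it was −0.03 and without Cvi array 3 −0.08, so the ICU2 difference depended on which Cvi array was left out. Without Cvi array 1, therefore, 2 of the 6 replication genes passed, 1 in each direction, among 23.7% of all probe sets.

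POLD3, a subunit of DNA polymerase δ, and FEN1, the flap endonuclease that trims the ends of lagging strand fragments, had the smallest differences of the 6. Between Cvi and Ler they were −0.10 (interval −0.40 to 0.19) and −0.05 (interval −0.29 to 0.19), and the signals were 106 to 152 for POLD3 and 168 to 212 for FEN1 over the 9 arrays. Without Cvi array 1 POLD3 was at −0.22 and without Cvi array 3 at 0.0423. No probe set is named here for the 5 nucleotide supply genes or the 9 E2F and RBR regulators listed. For the NIL against Ler the 6 replication genes ranged from −0.09 to 0.15, and for the NIL against Cvi from −0.20 to 0.11.

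**Figure D2:**
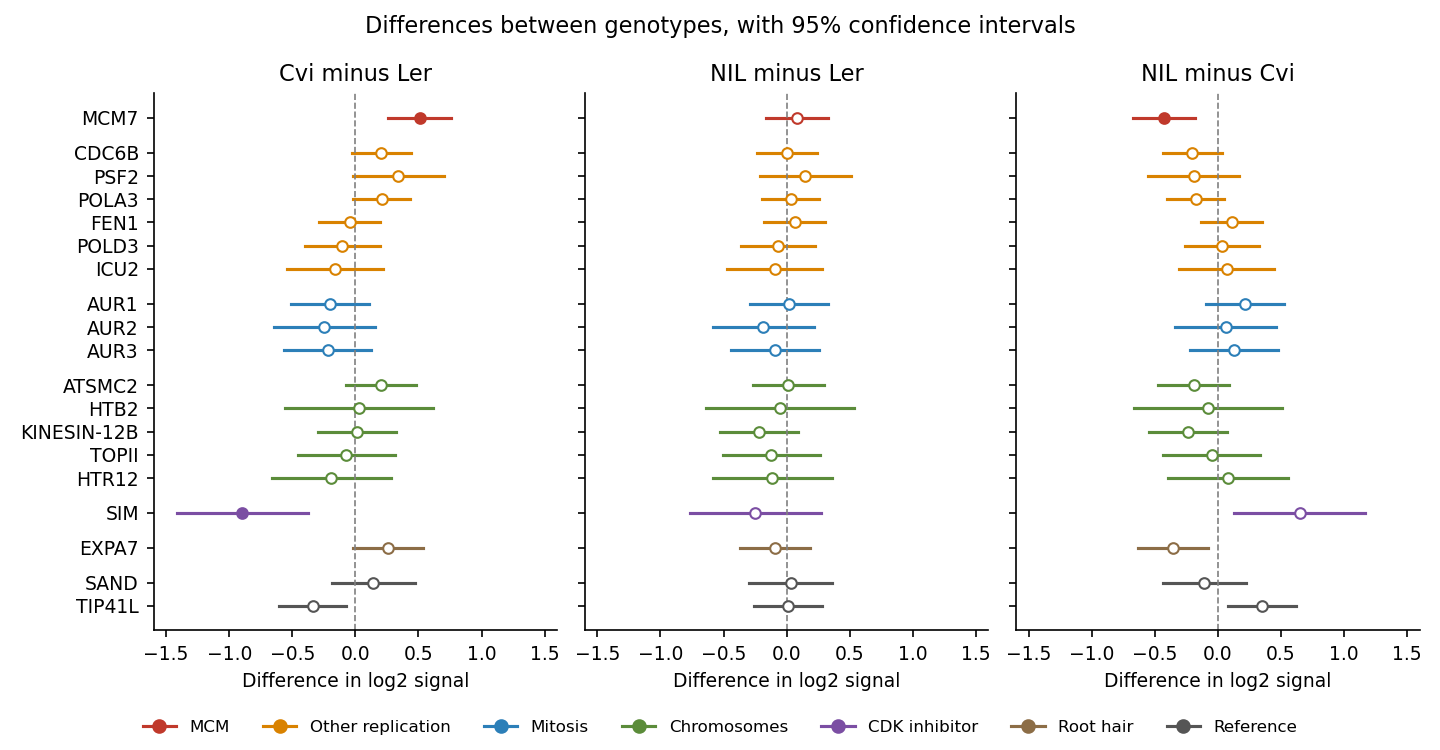
Difference in log2 signal between genotypes for MCM7 and the listed genes measured apart from the photosystem genes, 1 panel per comparison, with 95% confidence intervals. Filled points passed an adjusted p of 0.05 over all probe sets and open points did not; between Cvi and Ler the filled points are MCM7 at 0.51 and SIM at −0.90, and the 6 other replication genes are open at −0.16 to 0.34.

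Of 21 genes of mitosis listed, the 3 Aurora kinase genes were measured, whose products act on chromosomes, the spindle and the plane of division. Between Cvi and Ler 0 of 3 passed (limma, also 0 of 3 at an unadjusted p under 0.05), against 13.0% of all probe sets, and all 3 differences were negative, −0.20 for AUR1, −0.25 for AUR2 and −0.22 for AUR3. AUR1 had signals of 441, 658 and 610 in Cvi, 639, 666 and 656 in the NIL and 658, 638 and 643 in Ler. Cvi array 1 was the dimmest array for all 3 genes, and without it the differences were −0.03, −0.01 and −0.05. The summed signal of the 3 genes was 756 on Cvi array 1, 1067 and 1197 on the other Cvi arrays, 1072 to 1122 in the NIL and 1132 to 1162 in Ler.

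A set of 5 further genes for chromosomes and the division plane was listed after the annotation, but not the values of its genes, had been seen. It holds the centromere histone HTR12, the histone H2B gene HTB2, topoisomerase II (TOPII), the condensin subunit ATSMC2 and KINESIN-12B, a motor of the phragmoplast. None of the 5 passed in any comparison (limma, 0 of 5 each, also at an unadjusted p under 0.05). Of all probe sets, 13.0% passed for Cvi against Ler, 10.8% for the NIL against Cvi and 0.356% for the NIL against Ler. The differences of the 5 genes between Cvi and Ler were −0.19 to 0.20, with a median of 0.02. ATSMC2 had the largest positive difference, 0.20 (interval −0.08 to 0.48), with signals of 104, 76.1 and 90 in Cvi against 77.8, 83.7 and 71.7 in Ler, and it was 0.09 without Cvi array 1. HTB2 had signals of 181, 385 and 425 in Cvi and 298, 328 and 285 in Ler, a difference of 0.03 that became 0.42 without Cvi array 1 (adjusted p = 0.0162 from limma). HTR12 was at −0.19 and, without that array, at 0.09. Cvi array 1 was thus the dimmest of all for HTB2, the Aurora kinase genes and HTR12, while for MCM7 it lay between the other Cvi arrays. The rest of the 5 genes went the other way. This array was the brightest of all for ATSMC2 (104) and KINESIN-12B (75.9), and the brightest Cvi array for TOPII (350, against 262 and 226). For TOPII and KINESIN-12B the difference without it is not given.

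Among 12 listed inhibitors of cyclin-dependent kinases and genes of endoreduplication, the 1 measured was SIM (SIAMESE). SIM restrains mitosis and promotes endoreduplication, the copying of the genome without division. Its signals were 447, 983 and 836 in Cvi, 1183, 1129 and 1060 in the NIL and 1370, 1280 and 1348 in Ler. Every Cvi array lay below every NIL array, and every NIL array below every Ler array. SIM fell in Cvi relative to Ler by 0.90 on the log2 scale (standard error 0.23, interval −1.42 to −0.38, 1.86-fold, adjusted p = 0.0304 from limma), 1 of the 7.27% of probe sets that were lower. The exact permutation test gave p = 0.1 (two-sided), the smallest that 3 arrays against 3 allow. Without Cvi array 1 the difference was −0.56 (adjusted p = 0.00157 from limma). The SIM call was lost when any 1 of the NIL or Ler arrays was left out, in the fit to the 6 arrays compared and with 16 added to the signal (adjusted p up to 0.106, limma). For the NIL, SIM was −0.25 against Ler and 0.65 against Cvi, neither of which passed (adjusted p = 1.00 and 0.119, limma).

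**Figure D3:**
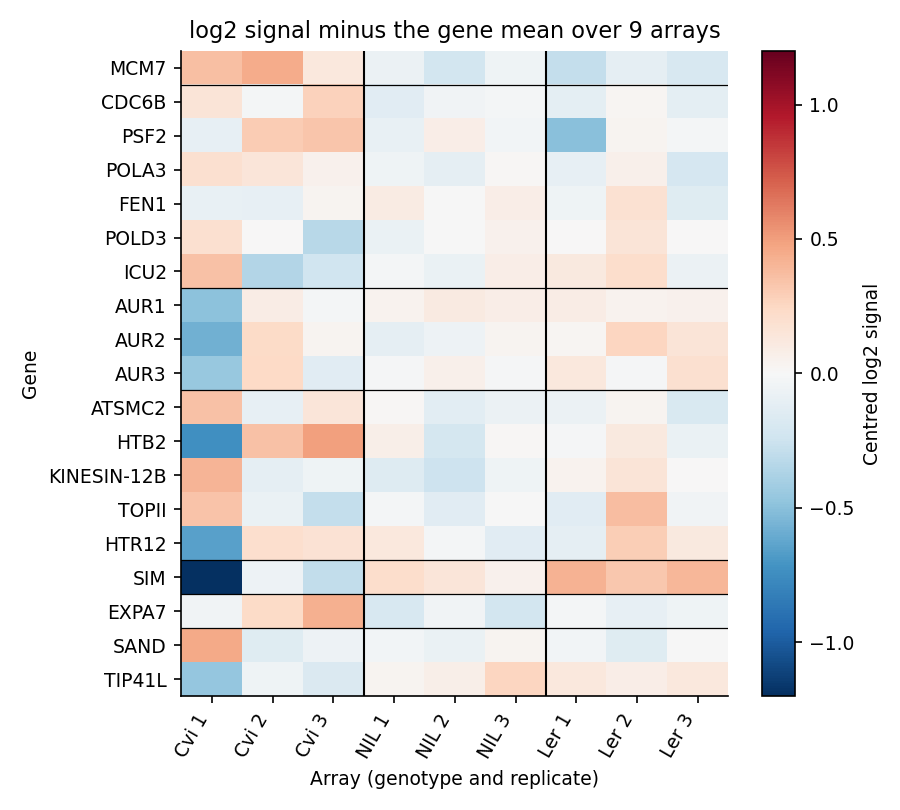
Heat map of the log2 signal of each gene minus its own mean over the 9 arrays, with genes in rows and arrays in columns. MCM7 is above its mean on all 3 Cvi arrays, whereas the Aurora kinase genes, HTB2, HTR12 and SIM are lowest on Cvi array 1. ATSMC2 and KINESIN-12B are highest on that array.

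Markers of other cells and reference genes were also read. EXPA7, an expansin of root hair cells and the 1 of 5 root hair markers measured, had signals of 971, 1177 and 1348 in Cvi, 878, 971 and 862 in the NIL and 988, 938 and 967 in Ler. Its difference between Cvi and Ler was 0.26 (adjusted p = 0.233 from limma), and without Cvi array 1 it was 0.39 and passed (adjusted p = 0.0129 from limma). Of 42 photosystem genes, listed after the annotation was seen, 7 were measured. Between Cvi and Ler 2 passed as lower and 0 as higher, against 7.27% lower and 5.75% higher over all probe sets. At an unadjusted p under 0.05 (limma), 5 of the 7 differed, against 5670 of all 22746 probe sets. Of the 7 differences, 6 were negative and 1 positive. The genes that passed were the photosystem I subunit PSAN (2.14-fold, adjusted p = 0.0253, limma) and the antenna protein LHCB4.2 (1.74-fold, adjusted p = 0.00344, limma). LHCB4.2 was also higher in the NIL than in Cvi (1.41-fold, adjusted p = 0.0483, limma). The PSAN call was lost in the fit to the 6 arrays compared and without any 1 of the Ler arrays (adjusted p up to 0.0941, limma). Without Cvi array 1 the PSAN difference was −0.70 and that of LHCB4.2 −0.72, and both passed (adjusted p = 0.00159 and 0.00189, limma). The photosystem I subunit gene PSAE-1, named after its values were seen, ran the other way, with signals of 101, 246 and 248 in Cvi and 116, 122 and 116 in Ler. Its difference was 0.64 (adjusted p = 0.192, limma), and without Cvi array 1 it was 1.06 and passed (adjusted p = 3.72e-06, limma). The summed signal of the 7 genes was 735 on Cvi array 1, 1439 and 1440 on the other Cvi arrays, 1311 to 1379 in the NIL and 1441 to 1535 in Ler. TIP41L and SAND, often used as reference genes, differed by −0.34 and 0.14 between Cvi and Ler, and neither passed (adjusted p = 0.102 and 0.634, limma). Without Cvi array 1 they differed by −0.22 and −0.05, so that SAND changed sign. The part of these values in the MCM7 difference was not tested.

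The probe sets most like MCM7 over the 9 arrays were found by Pearson correlation of log2 signals, among 6008 probe sets of single genes with an SD of at least 0.2. The points of these correlations share arrays and fall into 3 genotypes, so they are given as a description. The highest were At1g70280 (r = 0.97), At4g02220 (0.97), At1g69840 (0.97), At2g03380 (0.96) and At3g58060 (0.96). At1g70280 had signals of 244, 250 and 216 in Cvi, 161, 145 and 169 in the NIL and 154, 169 and 147 in Ler, the same order of Cvi arrays as MCM7. Between Cvi and Ler these 5 genes differed by 0.38 to 0.97. A correlation of at least 0.9 was reached by 130 probe sets (2.16%). Cvi was above Ler in all 130, which follows from the choice by likeness to MCM7.

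After the genotype means had been taken off, the highest correlations with MCM7 were those of At3g28670 (0.92), At2g03380 (0.92), At3g62630 (0.91), LpxA (0.90) and At1g70280 (0.88). LpxA is related to an enzyme of lipid A synthesis in bacteria. At2g03380 and At1g70280 were among the 5 highest by both measures. Of the other replication genes, POLA3 was the most like MCM7 over the 9 arrays and POLD3 within genotypes. The SD limit of 0.2 was not applied to these listed genes. POLA3 had r = 0.86 over the 9 arrays and 0.64 within genotypes. CDC6B had 0.55 and −0.50, PSF2 0.54 and 0.03, POLD3 0.05 and 0.72, ICU2 −0.19 and 0.21, and FEN1 −0.27 and 0.06. SIM had r = −0.75 with MCM7 over the 9 arrays and r = −0.11 within genotypes. Other listed genes had similar values over the 9 arrays, namely PSAN (−0.77), LHCB4.2 (−0.73), TIP41L (−0.72) and LHCB4.1 (−0.70). Like SIM, they had a lower mean in Cvi than in Ler, so nothing particular to SIM is read from its value.

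MCM7 lies on chromosome 4, and its neighbours in gene order were read in the same fit. Of the 16 nearest genes with a probe set named here, 8 on each side, 2 differed between Cvi and Ler at an unadjusted p under 0.05 (limma). Neither was higher in Cvi, and 5670 of all 22746 probe sets differed at that level. At the adjusted threshold none of the 16 was higher and 1 was lower, against 5.75% and 7.27% of all probe sets, so these counts are near the background. The lower gene was At4g02180, 15 annotated genes from MCM7, at −1.56 (standard error 0.20, adjusted p = 5.06e-04 from limma), and the others ranged from −0.48 to 0.22. None of the 16 passed between the NIL and Ler (limma, also 0 at an unadjusted p under 0.05), with differences of −0.34 to 0.23. For NIL minus Cvi, 1 of the 16 passed, against 10.8% of all probe sets. It was again At4g02180, higher in the NIL at 1.58 (adjusted p = 5.70e-04 from limma). At4g02220, among the genes most like MCM7, is 21 annotated genes away. Its Cvi minus Ler difference was 0.59, a value that the choice by likeness had fixed in direction.

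**Figure D4:**
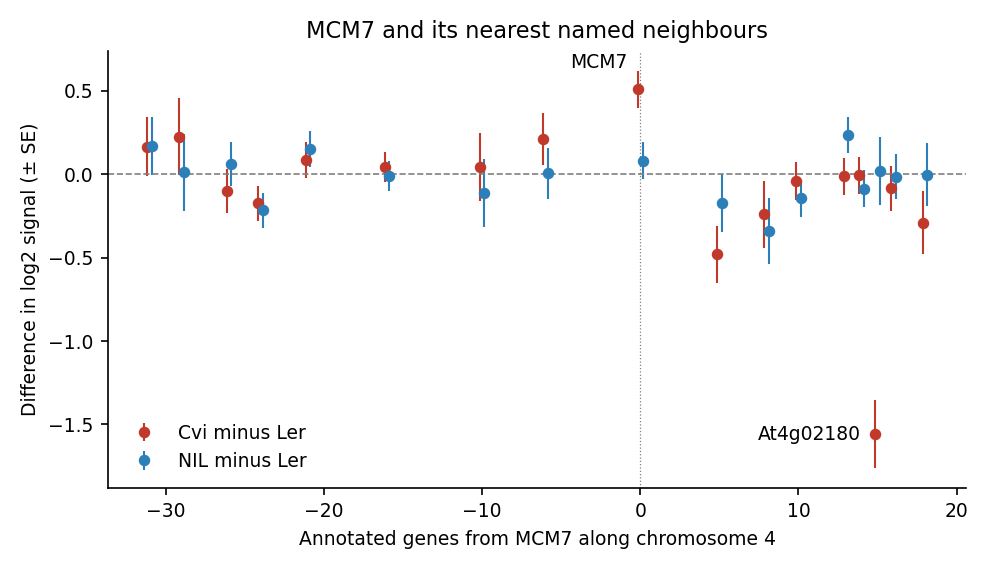
Difference in log2 signal (± standard error) of MCM7 and its 16 nearest named neighbours, against position counted in annotated genes along chromosome 4. MCM7 stands at 0.51 for Cvi minus Ler and 0.08 for NIL minus Ler, while At4g02180 is at −1.56 for Cvi minus Ler.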

How the data were processed

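The deposited table gives 1 hybridization intensity per probe set and array, on a linear scale and normalized by the authors. Both MAS5 and RMA appear in the submitters' processing notes, and their versions, roles and order are not given in the sources used here. Of 22810 probe sets, 64 controls were left out. Genes were named through the platform annotation and a gene table of assembly TAIR10.1 (names and order only): 13436 probe sets have 1 gene, 503 several and 8807 are unnamed. Log2 intensities of all 9 arrays entered 1 linear model with a mean per genotype (lmFit and eBayes of limma 3.58.1, R 4.3.3), with Benjamini-Hochberg adjustment over 22746 probe sets. The code of the fit was also run on simulated data with the same spread at every probe set and no outlying array. That run does not show how the fit handles an outlying array.

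The members and gene lists were chosen with earlier results of these data known. The rule named every measured MCM gene, up to 4 listed members per list that passed or else the largest, and the 5 genes most like MCM7 by each of the correlations. Other members of short lists were named after their values were seen. The rule foresaw several MCM probe sets, and the planned family summaries became the single value of MCM7. No detection calls were used, and the number of arrays limits the precision. Replicates are biological by their labels. Alternatives were quantile normalization, leaving out dim probe sets, a fit to 6 arrays, the replicate number as a block, trend and robust eBayes, a pseudocount of 16, array weights, a 2-fold limit and leaving out each array.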

Additional observations from a re-analysis of the deposited data

How the results depend on the processing

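MCM7 was chosen with results known, so its values and calls are listed here as a description only. The difference between Cvi and Ler was 0.44 to 0.60 with single arrays left out. Without Ler array 1 it was 0.47 and the count of MCM probe sets past the threshold was 0, as it was with a 2-fold limit, against 1. For the NIL minus Cvi, MCM7 stayed at −0.43 and was not past the threshold in the fit to 6 arrays, with the replicate block or with trend and robust estimation, so that the count was 0, as with the 2-fold limit. With single arrays left out it was −0.52 to −0.36, and the count was 0 or 1. The cause was not tested. Between the NIL and Ler it was 0.04 to 0.13 with single arrays left out.

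Array weights gave Cvi array 1 a weight of 0.0880 and Cvi array 3 4.67. With them, 4 other replication genes passed for Cvi minus Ler (CDC6B and PSF2 higher, ICU2 and POLD3 lower), among 42.0% of all probe sets. For NIL minus Cvi 3 other replication genes passed, among 30.5% of all probe sets. In the main fit both counts were 0. The count for Cvi minus Ler was 0 to 2 with single arrays left out, and was 2 only without Cvi array 1, where 23.7% of all probe sets passed. The mitosis count for Cvi minus Ler was 0 of 3 in all 17 alternatives, in which 3.88% to 42.0% of all probe sets passed. With 3 probe sets, nothing is read from this count. FEN1 turned to 0.0496 with array weights and to 0.0469 without Ler array 2 (−0.12 to 0.0469 over single arrays), and POLD3 to 0.0423 without Cvi array 3 (−0.22 to 0.0423). HTB2 turned to −0.13, −0.20 and −0.01 without Cvi array 2, Cvi array 3 and Ler array 3, none of which passed, against 0.42 without Cvi array 1. HTR12 turned to 0.18 with array weights and to 0.0890 without Cvi array 1 (−0.34 to 0.0890), and SAND to −0.0210 and −0.0459 (−0.0459 to 0.26), none past the threshold. Over 19 further genes and 304 values, 269 kept direction and call.

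Probe sets called for Cvi minus Ler were 2960, against 9546 with array weights, 5396 without Cvi array 1, 1944 in the fit to 6 arrays, 883 with the 2-fold limit, and 1832 and 1864 without Ler arrays 1 and 3. For NIL minus Ler they were 81, against 223 in the fit to 6 arrays, 486 with array weights, 43 with the 2-fold limit, 266 without Cvi array 1 and 30 to 46 without a NIL or Ler array. For NIL minus Cvi they were 2465, against 6931, 4028 without Cvi array 1, 1529, 772 and 1560 to 1626 without a NIL array. The labels do not say whether replicate numbers pair the arrays. Deviations of same-numbered arrays correlated at −0.26 to 0.23, and 3 arrays per genotype are too few to decide it. With the replicate block MCM7 was at 0.51 for Cvi minus Ler and still past the threshold, whereas for NIL minus Cvi it was no longer past it.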
